A study of Mus musculus with 48 samples.

Results

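The NF-kappaB genes described here are 5 Rel family subunits (Nfkb1, Nfkb2, Rel, Rela and Relb), 3 inhibitors that NF-kappaB itself induces (Nfkbia, Nfkbie and Tnfaip3) and 2 target genes that encode cell surface proteins (Cd274 and Icam1). They were picked by name as members of the pathway, with earlier results of these data known, so that counts over them are descriptions, and all 10 were found among the 47480 gene symbols of the count tables. Cells of the mouse line C2C12, myoblasts that fuse into muscle cells when they differentiate, were plated on flexible membranes coated with collagen I and either stretched in cycles, equally in all directions of the membrane, or kept on the same plates without stretching. RNA was sequenced from undifferentiated myoblasts and from cells that had differentiated for several days in medium with little serum, taken 1 h, 3 h or 6 h into stretching or at the same times without it. This gives 12 groups of 4 libraries, 48 in all, and each time point has non-stretched cells of its own. All groups derive from 1 cell line, and no other genotype or agent was compared. The labels carry a code that was read as that of the experiment, although they do not name it so. By this code, replicates 7 and 8 of a stage came from 1 experiment and replicates 9 and 10 from another. Experiment is used below for libraries of a stage with the same code. For stretched myoblast replicate 9 at 1 h the sample title and the count table carry different codes, and that of the table, which is the code of replicate 10, was used. In differentiated cells stretched for 1 h, replicate 4, the only library with a further code, stands in the place of replicate 10.

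NF-kappaB proteins bind DNA as pairs of Rel family subunits. In resting cells most pairs are held in the cytoplasm by IkB proteins, until a kinase complex marks the IkB for destruction and the pair enters the nucleus. Among the genes it then induces are those of its own inhibitors, so that the response limits itself, and the precursor encoded by Nfkb2 belongs to a slower branch that is switched on through the kinase NIK, the product of Map3k14. In skeletal muscle NF-kappaB is known for its part in inflammation and wasting and for holding back the differentiation of myoblasts.

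The promoters of the genes whose levels are compared most closely are shown because their feedback on NF-kappaB runs through kappaB sites, the short elements that Rel pairs bind. The windows run from 250 bases before to 50 after an annotated start (RefSeq, build GRCm38.p6), and 8 of the 10 genes had at least 1 window in that table, 11 in all. The 10-base kappaB consensus was searched on both strands, with matches that overlap each other joined, and its matches are in capitals in the sequences of Nfkb2 (the first of its 3 annotated starts), Nfkbia, Nfkbie and Tnfaip3 (the first of its 2 starts).
Nfkb2 (chr19:46304487-46304786, plus strand): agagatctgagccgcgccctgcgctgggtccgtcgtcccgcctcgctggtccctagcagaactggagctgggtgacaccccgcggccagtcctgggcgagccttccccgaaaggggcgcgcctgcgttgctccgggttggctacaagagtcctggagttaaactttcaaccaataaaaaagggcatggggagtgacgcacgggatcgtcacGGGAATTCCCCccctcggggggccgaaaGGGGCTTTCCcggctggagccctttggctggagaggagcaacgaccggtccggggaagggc
Nfkbia (chr12:55492598-55492897, minus strand): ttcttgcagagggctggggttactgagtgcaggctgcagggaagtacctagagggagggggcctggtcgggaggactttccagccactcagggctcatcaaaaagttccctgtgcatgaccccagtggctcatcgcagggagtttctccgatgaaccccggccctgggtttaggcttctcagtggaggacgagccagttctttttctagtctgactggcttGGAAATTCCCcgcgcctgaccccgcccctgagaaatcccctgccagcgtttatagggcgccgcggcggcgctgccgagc
Nfkbie (chr17:45555450-45555749, plus strand): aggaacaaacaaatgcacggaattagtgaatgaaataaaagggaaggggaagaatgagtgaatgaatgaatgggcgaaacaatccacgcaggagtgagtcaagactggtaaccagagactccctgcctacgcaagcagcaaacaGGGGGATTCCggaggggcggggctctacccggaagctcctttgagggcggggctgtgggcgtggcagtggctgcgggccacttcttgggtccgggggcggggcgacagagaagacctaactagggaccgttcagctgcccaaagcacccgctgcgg
Tnfaip3 (chr10:19015361-19015660, minus strand): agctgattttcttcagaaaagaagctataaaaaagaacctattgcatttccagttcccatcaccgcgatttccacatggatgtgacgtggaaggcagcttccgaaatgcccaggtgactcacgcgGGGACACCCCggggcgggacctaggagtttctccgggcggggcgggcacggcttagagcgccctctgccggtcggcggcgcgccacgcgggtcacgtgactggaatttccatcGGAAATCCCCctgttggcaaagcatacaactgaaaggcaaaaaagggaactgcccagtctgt
Nfkb2 and Tnfaip3 had 2 separate matching stretches each, and Nfkbia and Nfkbie 1 each. Counted from the start, with the base before it at -1, the match of Nfkbia lay from -29 to -20 and that of Nfkbie from -106 to -97. The second stretch of Nfkb2 (-11 to -2) and of Tnfaip3 (-12 to -3) lay next to the start. Rel also had a match. The windows of Rela, Cd274, Icam1 and the second start of Tnfaip3 held none, which says only that these letters are not in the window. A match describes the sequence and is not a measured binding site. Over all 32851 promoters of the table, 8.46% held the consensus.

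The genes covered a range of levels that is wide at the bottom. Counts were scaled by the size of the library (CPM) and, to compare genes, divided by the length of their exons (CPM per kb, mean ± SD of the 12 non-stretched libraries of a stage). Rela, the subunit that carries the main activation domain (gene at chr19:5637483-5648130, mm10), was highest in both stages, at 29.5 ± 1.39 CPM per kb in myoblasts and 29.3 ± 0.956 in differentiated cells. Next in myoblasts came Nfkbia (16.4 ± 0.797), Nfkb2 (14.4 ± 0.707) and Nfkb1 (12.8 ± 0.254), and Nfkb2 overlapped with both of its neighbours in this order. Below them came Tnfaip3 at 5.51 ± 0.152, Rel at 2.06 ± 0.0795, Relb at 1.77 ± 0.125 and Nfkbie at 1.30 ± 0.0997 CPM per kb, with no overlap between neighbours. In differentiated cells the order was Rela, Nfkb2 (19.2 ± 0.749), Nfkbia (11.3 ± 0.463), Nfkb1 (8.60 ± 0.258), Tnfaip3 (5.57 ± 0.235), Relb (5.32 ± 0.278), Nfkbie (2.66 ± 0.171) and Rel (2.22 ± 0.125), where Tnfaip3 overlapped with Relb and Nfkbie with Rel. Rela and the genes of IkB-alpha and of both precursors thus held the first 4 places in either stage. Cd274 and Icam1 stood far below, at 0.0986 ± 0.0203 and 0.00223 ± 0.00309 CPM per kb in myoblasts and 0.187 ± 0.0379 and 0.00354 ± 0.00382 in differentiated cells. Both target genes were therefore the least abundant by far. On the CPM scale, the non-stretched mean of Relb was 3.01 times as high in differentiated cells as in myoblasts, that of Nfkbie 2.04 times and that of Nfkb2 1.33 times. The mean of Nfkb1 was 0.671 and that of Nfkbia 0.688 times as high. For these 5 genes the libraries of the stages did not overlap. The share of all genes without such overlap was not counted, so this number says nothing particular about NF-kappaB genes. The ratios of Cd274 (1.90), Rel (1.08), Tnfaip3 (1.01) and Rela (0.992) came with overlapping libraries. The stages were scaled separately and grown in different experiments, so these ratios are descriptions and were not tested.

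**Figure D1:**
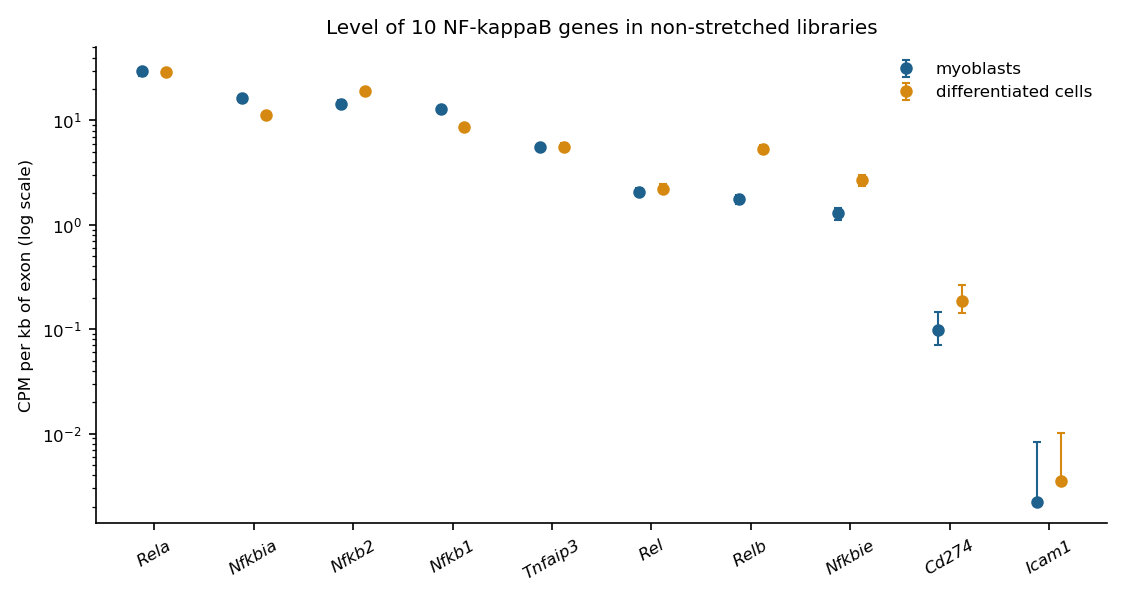
Mean level of the 10 genes in the 12 non-stretched libraries of each stage, in CPM per kb of exon on a log scale, with bars from the lowest to the highest library (no lower bar where the lowest is 0). Relb and Nfkbie are higher in differentiated cells, Nfkb1 and Nfkbia in myoblasts, and Cd274 and Icam1 lie below the other genes in both stages.

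Icam1, which encodes an adhesion molecule for leukocytes (chr9:21015985-21028817), was near the limit of detection. It had between 0 and 3 counts in a library, 33 counts over all 48 libraries and none in 26 of them. A count of 0 allows up to 3 counts, which is between 0.0389 and 0.0619 CPM depending on the library, and the highest value seen was 0.0438 CPM. Icam1 was removed from every comparison by the filter on low counts, so that 9 of the 10 genes were tested and a change of Icam1 was not detectable at this depth.

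The libraries held between 48447318 and 77080730 counts. Genes known to respond early to stretching rose in the stretched myoblasts at 1 h, with log2 fold changes of 2.16 for Fos, 1.396 for Egr1, 0.81 for Cyr61 and 0.65 for Ctgf. In differentiated cells at 1 h, Fos (2.76) and Cyr61 (1.83) passed the test, while Ctgf (2.10) and Egr1 (1.33) did not. Without stretched replicate 4 all 4 passed there, at 2.04, 1.38, 1.28 and 0.88 for Fos, Cyr61, Ctgf and Egr1. The summed level of 6 markers of differentiated muscle was 7.73 to 15.7 CPM in myoblast and 7077 to 8513 CPM in differentiated libraries, which is the order the labels give, whereas 5 myoblast markers, led by Des, were summed at 1072 to 1303 and 3407 to 4024 CPM. The summed level of 11 leukocyte markers was 7.96 to 10.4 CPM in myoblasts and 5.31 to 7.70 CPM in differentiated cells, most of it from Cd14 (means of 7.91 and 4.48 CPM), with Adgre1 and Tyrobp at 0 in every library and Cd3e at 0 in every myoblast library. That of 7 endothelial markers was 0.373 to 0.980 CPM and 1.25 to 2.19 CPM, with Emcn at 0 in every library and Tie1 at 0 in every myoblast library. In bulk libraries, fewer cells that express a gene and less of its RNA per cell cannot be told apart. Per the study's methods the libraries of a group were separate samples from 2 independent experiments in myoblasts and 3 in differentiated cells. The codes in the labels give 2 for every differentiated group except the one stretched for 1 h, so that reading a code as an experiment is uncertain. Libraries of 1 experiment share it, but the fits took them as independent. The p-values thus measure the pooled spread over libraries and experiments, and not how the stretch effect varies between experiments. The stretched library of replicate 4 of differentiated cells at 1 h lay apart from the others of its group for Nfkb1, Nfkbia and Tnfaip3, and the log2 fold changes and medians of that comparison are given with and without it.

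Stretching was first compared with no stretching at each time. A gene was taken as changed when its edgeR p-value, adjusted by Benjamini-Hochberg over all genes tested, was under 0.05. In myoblasts at 1 h, 2 of the 9 genes tested passed, beside 5.92% of all genes tested. They were Tnfaip3, which was higher, beside 1.67% of all genes in that direction, and Nfkbia, which was lower, beside 4.24%. At 3 h all 9 passed, beside 31.9% of all genes, 6 of them higher (16% of all genes) and 3 lower (15.8%). By DESeq2 7 passed, without Cd274 and Relb. With no filter on low counts, a minimum of 10 counts or all 24 libraries of the stage 8 passed. At 6 h 4 passed, beside 27.2% of all genes, all 4 of them higher (14.1% of all genes, while 13.0% were lower), but without non-stretched replicate 9 only 1 (Nfkbia) did. In differentiated cells at 1 h none of the 9 passed by edgeR, beside 0.663% of all genes (0.193% higher and 0.470% lower), but 1 had an unadjusted p under 0.05 and passed by DESeq2, which was Tnfaip3. Without stretched replicate 4 this gene passed by edgeR as well, beside 1.12% of all genes. At 3 h 5 passed, beside 22.2% of all genes, 2 of them higher (10.8%) and 3 lower (11.4%). At 6 h 4 passed, beside 22.3%, with 3 higher (11.5%) and 1 lower (10.8%).

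The passing differences were small. Of the 24 that passed among 54 tests, 16 were rises and 8 were falls, and 3 reached a log2 fold change of 0.58 in either direction, all of them of Cd274. These were in myoblasts at 3 h, beside 1.71% of all genes, in myoblasts at 6 h, beside 2.17%, and in differentiated cells at 3 h, beside 1.63%. None of the 9 passed with this size in myoblasts at 1 h or in differentiated cells at 1 h or 6 h, beside 1.25%, 0.270% and 2.04% of all genes. The other passing log2 fold changes were between 0.080 and 0.38 in size. The median log2 fold change of the 9 genes was -0.047 at 1 h, 0.13 at 3 h and 0.12 at 6 h in myoblasts, and 0.053, 0.042 and 0.15 in differentiated cells (-0.031 at 1 h without stretched replicate 4), beside medians of all genes from -0.0074 to 0.0024. Below, log2 differences between the stretched and non-stretched libraries of 1 experiment are given first for replicates 7 and 8 and then for replicates 9 and 10. They come from the libraries on which the calls were made, and for passing genes they describe the spread and add no evidence for the direction.

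At 3 h the stages shared more of these changes than at 1 h or 6 h, and the shares of all genes had the same order. Of the 9 genes, 5 passed at 3 h in both stages in the same direction, beside 15.6% of the genes tested in both, and none passed in opposite directions. Nfkb1 and Rela rose, and Nfkb2, Nfkbie and Cd274 fell. The call of Rela in differentiated cells was lost in most fits without a single library, and DESeq2 gave Cd274 no adjusted p at this time. At 6 h only Nfkbia passed in both stages (a rise in each), beside 11.0% of all genes, and at 1 h no gene did, beside 0.608%.

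**Figure D2:**
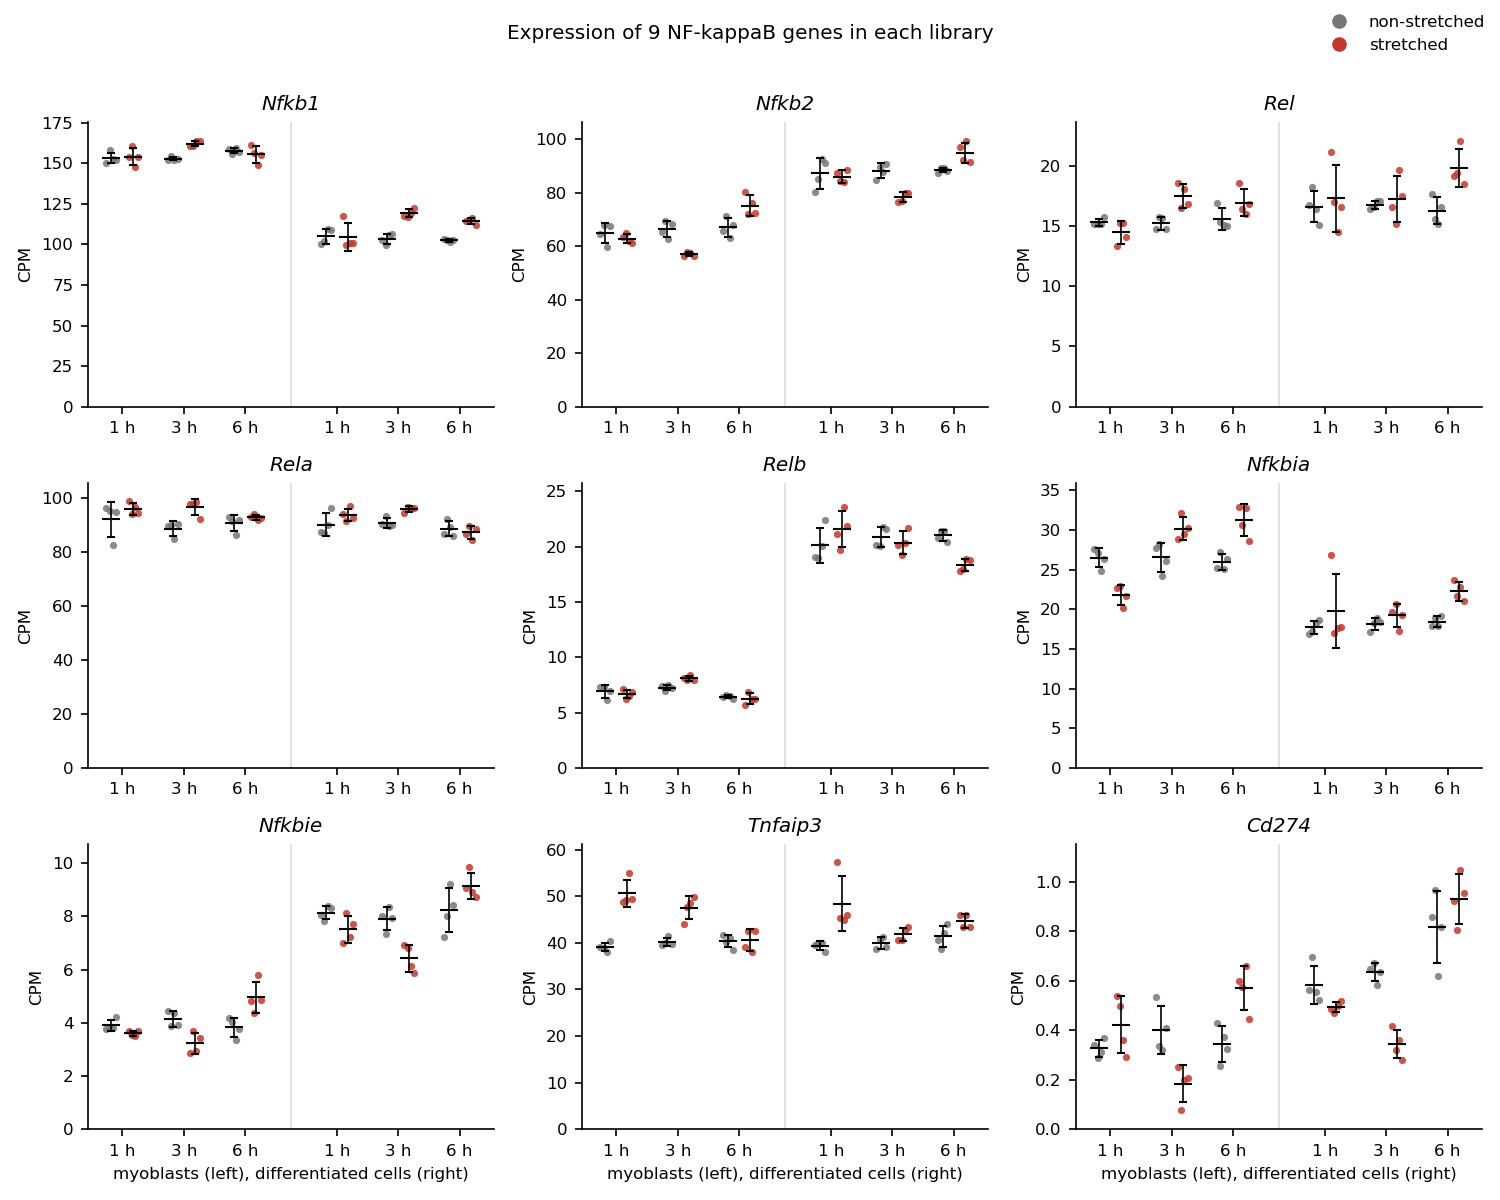
CPM of 9 genes in each of the 48 libraries, with non-stretched libraries in grey and stretched libraries in red, by time in hours, in myoblasts (left of each panel) and differentiated cells (right). Points are libraries, and black bars show the mean and SD of the 4 libraries of a group. At 3 h the stretched libraries of Nfkb2, Nfkbie and Cd274 lie below the non-stretched ones in both stages, and at 1 h the single high stretched library of Nfkb1, Nfkbia and Tnfaip3 in differentiated cells is replicate 4.

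Nfkb1 (chr3:135584655-135691547) encodes the precursor of p50, the subunit that most often pairs with RelA. It rose at 3 h in both stages and at 6 h in differentiated cells. In myoblasts at 3 h, replicates 7 to 10 had 152, 154, 152 and 153 CPM without stretching and 161, 161, 163 and 164 CPM with stretching. All stretched libraries lay above the non-stretched ones, and the log2 fold change was 0.093 ± 0.021 (SE, adjusted p = 0.00514 by edgeR). Differentiated cells at 3 h had 103, 99.3, 106 and 106 CPM in the non-stretched and 118, 117, 119 and 122 CPM in the stretched libraries, again without overlap (log2 fold change 0.20 ± 0.031, adjusted p = 0.00144 by edgeR). At 6 h in differentiated cells, 104, 103, 101 and 103 CPM stood against 115, 115, 116 and 112 CPM, with a log2 fold change of 0.16 ± 0.027 (adjusted p = 0.00353 by edgeR), and in myoblasts at that time the groups overlapped (-0.019 ± 0.030). The stretch effect on Nfkb1 at 6 h was larger in differentiated cells than in myoblasts by 0.17 ± 0.039 (SE, adjusted p = 0.0220 by edgeR), beside 5.18% of all genes that passed this test, and no other of the 9 did. This call was lost with a replicate block (adjusted p = 0.0633 by edgeR). The experiments gave 0.071 and 0.10 for myoblasts at 3 h, 0.22 and 0.19 for differentiated cells at 3 h and 0.15 and 0.16 for those at 6 h. At 1 h, replicate 4 of the stretched differentiated cells had 117 CPM and the other stretched libraries 99.5, 101 and 101 CPM, and the log2 fold change moved from -0.0073 ± 0.059 to -0.066 when it was left out, neither past the test.

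Nfkb2 (chr19:46304320-46312385) encodes the precursor of p52, which pairs with RelB in the slower branch of the pathway. It fell at 3 h in both stages and rose at 6 h in myoblasts. The 3 h myoblasts had 65.3, 69.3, 62.7 and 68.3 CPM in the non-stretched and 56.5, 57.8, 57.5 and 56.5 CPM in the stretched libraries of replicates 7 to 10. Every stretched library was below every non-stretched one, and Nfkb2 fell by 0.21 ± 0.032 on the log2 scale (SE, adjusted p = 0.000276 by edgeR). In differentiated cells at 3 h the values were 84.8, 89.7, 87.5 and 90.9 CPM and 76.6, 77.02, 80.0 and 79.7 CPM, and the fall was 0.17 ± 0.030 on the log2 scale (adjusted p = 0.00293 by edgeR). At 6 h the order of the groups was turned around. Myoblasts had 65.8, 71.4, 63.1 and 68.0 CPM without and 80.2, 71.9, 76.0 and 72.4 CPM with stretching, a log2 fold change of 0.17 ± 0.045 (adjusted p = 0.0183 by edgeR), although the lowest stretched and the highest non-stretched library, both replicate 8, were close and the call was lost without non-stretched replicate 7 (adjusted p = 0.0553) or 9 (0.0576). In differentiated cells, 87.4, 89.1, 89.3 and 88.0 CPM stood against 96.9, 92.0, 99.2 and 91.4 CPM, without overlap but with a log2 fold change of 0.10 ± 0.033 that did not pass (adjusted p = 0.0540 by edgeR), although it did by DESeq2 (0.0351) and without stretched replicate 10 (0.0484). The differences within the experiments were -0.24 and -0.20 at 3 h and 0.15 and 0.18 at 6 h in myoblasts, and -0.18 and -0.16 at 3 h in differentiated cells.

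Rel (chr11:23736847-23770970), which encodes c-Rel, rose in myoblasts at 3 h, from 14.8, 15.7, 15.7 and 14.8 CPM in replicates 7 to 10 to 18.6, 16.5, 18.1 and 16.9 CPM. The groups did not overlap (log2 fold change 0.21 ± 0.047, adjusted p = 0.00473 by edgeR). In differentiated cells it rose at 6 h, where 17.7, 15.6, 15.1 and 16.6 CPM stood against 19.2, 19.4, 22.1 and 18.5 CPM, with a log2 fold change of 0.28 ± 0.065 (adjusted p = 0.0115 by edgeR). The experiments gave log2 differences of 0.20 and 0.20 in myoblasts and 0.21 and 0.35 in differentiated cells. At 1 h in differentiated cells, stretched replicate 4 was at 21.1 CPM and the others at 17.02, 14.5 and 16.6 CPM, and leaving it out took the log2 fold change from 0.054 ± 0.11 to -0.056, neither past the test.

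Rela changed at 3 h in both stages, by no more than 0.13 on the log2 scale in any comparison. In myoblasts at 3 h it went from 89.8, 90.0, 84.8 and 90.5 CPM without stretching to 98.0, 97.8, 98.8 and 92.2 CPM with stretching in replicates 7 to 10, a log2 fold change of 0.13 ± 0.030 (adjusted p = 0.00496 by edgeR) without overlap. The differentiated cells at 3 h had 90.3, 93.4, 89.6 and 90.1 CPM and 94.4, 96.7, 96.4 and 96.4 CPM, and the log2 fold change of 0.080 ± 0.025 passed (adjusted p = 0.0390 by edgeR), but it was lost when any 1 library other than non-stretched replicate 8 was left out (adjusted p from 0.0623 to 0.104), with no filter on low counts (0.139) and with all 24 libraries of the stage (0.0904). The experiments gave 0.12 and 0.12 in myoblasts and 0.057 and 0.10 in differentiated cells. At 1 h and 6 h the groups overlapped in both stages, with log2 fold changes from -0.021 to 0.060 that did not pass (0.053 in differentiated cells at 1 h, with and without replicate 4).

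Relb (chr7:19606217-19629438), the partner of p52, rose in myoblasts at 3 h and fell in differentiated cells at 6 h. In myoblasts at 3 h, 7.36, 6.92, 7.51 and 7.24 CPM in the non-stretched and 8.15, 7.96, 8.39 and 7.92 CPM in the stretched libraries gave a log2 fold change of 0.17 ± 0.053 (adjusted p = 0.0275 by edgeR). All stretched libraries lay above the non-stretched ones, but this call was lost without non-stretched replicate 8 or 10 or without replicate 7 or 9 of the stretched group (adjusted p from 0.0575 to 0.0747), by DESeq2 (0.0533), with no filter on low counts (0.0591) and with all 24 libraries of the stage (0.0569). Differentiated cells at 6 h had 20.8, 21.4, 21.4 and 20.4 CPM without and 17.8, 18.0, 18.9 and 18.8 CPM with stretching. Here every stretched library was lower, and Relb fell by 0.19 ± 0.039 on the log2 scale (adjusted p = 0.00625 by edgeR), with -0.24 and -0.15 in the 2 experiments. In differentiated cells the stretch effect on Relb was lower at 6 h than at 1 h by a difference of -0.30 ± 0.083 (SE, adjusted p = 0.0382 by edgeR), beside 8.69% of all genes, but this call was lost without non-stretched replicate 7, 8 or 9 of either time, stretched replicate 8 of either time or stretched replicate 7 or 9 at 6 h (adjusted p from 0.0567 to 0.0801).

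Of the inhibitors, Nfkbia (chr12:55489410-55492647), which encodes IkB-alpha, the fast feedback inhibitor of the canonical pathway, fell at 1 h and rose at 3 h and 6 h in stretched myoblasts. At 1 h replicates 7 to 10 had 27.6, 27.1, 24.9 and 26.3 CPM without stretching and 22.7, 22.9, 20.1 and 21.7 CPM with stretching. All stretched libraries were lower, and Nfkbia fell by 0.28 ± 0.050 on the log2 scale (SE, adjusted p = 0.00755 by edgeR). At 3 h the non-stretched libraries had 27.7, 28.3, 24.2 and 26.0 CPM and the stretched ones 28.8, 32.2, 29.5 and 30.2 CPM. At 6 h 25.2, 27.2, 25.1 and 26.3 CPM stood against 32.9, 30.6, 32.8 and 28.7 CPM. At both times the stretched libraries lay above the non-stretched ones, with log2 fold changes of 0.19 ± 0.049 (adjusted p = 0.00956 by edgeR) and 0.27 ± 0.049 (adjusted p = 0.00222). The stretch effect at 6 h exceeded that at 1 h in myoblasts by 0.55 ± 0.073 (SE, adjusted p = 6.07e-05 by edgeR). Differentiated cells showed the rise at 6 h, from 17.9, 18.9, 17.9 and 19.1 CPM to 23.7, 21.6, 22.8 and 21.0 CPM (log2 fold change 0.27 ± 0.047, adjusted p = 0.00345 by edgeR). The experiments gave -0.26 and -0.29 in myoblasts at 1 h, 0.12 and 0.25 at 3 h and 0.28 and 0.26 at 6 h, and 0.30 and 0.24 in differentiated cells at 6 h. At 1 h, stretched differentiated replicate 4 had 26.8 CPM while the other stretched libraries lay within the non-stretched range of 16.9 to 18.6 CPM, the highest of them at 17.7 CPM. Leaving replicate 4 out took the log2 fold change from 0.15 ± 0.13 to -0.027. The stretch effects of the stages at 1 h differed by 0.43 ± 0.15 (SE, adjusted p = 0.929 by edgeR) and by 0.25 without replicate 4 (adjusted p = 0.442), neither past the test.

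Nfkbie (chr17:45555703-45563169), the gene of IkB-epsilon, a slower feedback inhibitor, fell at 3 h in both stages and rose at 6 h in myoblasts. In myoblasts at 3 h it was at 4.45, 3.87, 4.36 and 3.91 CPM without and 2.88, 3.70, 2.92 and 3.41 CPM with stretching (replicates 7 to 10). The stretched libraries were all lower, by 0.35 ± 0.098 on the log2 scale (adjusted p = 0.0145 by edgeR). Differentiated cells at 3 h had 7.996, 7.35, 8.36 and 7.95 CPM and 6.91, 6.81, 6.12 and 5.88 CPM, and Nfkbie fell by 0.30 ± 0.070 on the log2 scale (adjusted p = 0.0121 by edgeR). Both falls came without overlap of the groups. At 6 h the stretched myoblasts lay above the non-stretched ones, with 4.80, 4.37, 5.78 and 4.87 CPM against 4.17, 4.02, 3.35 and 3.77 CPM. This rise of 0.38 ± 0.10 on the log2 scale (adjusted p = 0.0174 by edgeR) was uneven between the experiments, 0.16 and 0.57, and it did not pass without non-stretched replicate 9 (adjusted p = 0.0548). At 3 h the experiments gave -0.35 and -0.39 in myoblasts and -0.16 and -0.44 in differentiated cells. In differentiated cells at 6 h the groups overlapped (0.15 ± 0.078).

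Tnfaip3 (chr10:19000910-19015657) encodes A20, a ubiquitin-editing enzyme that shuts off the signal above the IkB kinase. The estimate of its stretch effect was highest at the first time point in both stages, although at that time it passed the test in myoblasts only. Non-stretched myoblasts at 1 h had 39.0, 38.8, 38.1 and 40.3 CPM and stretched ones 48.7, 49.3, 55.0 and 49.5 CPM in replicates 7 to 10. The groups did not overlap, and the log2 fold change of 0.38 ± 0.042 (SE, adjusted p = 0.000368 by edgeR) was the largest rise of the 9 genes at that time. At 3 h, 39.5, 39.9, 41.4 and 39.7 CPM stood against 44.0, 47.8, 48.6 and 49.8 CPM (log2 fold change 0.25 ± 0.037, adjusted p = 0.000240 by edgeR), and at 6 h the groups overlapped (0.011 ± 0.043). The effect at 6 h was lower than that at 1 h by a difference of -0.36 ± 0.062 (SE, adjusted p = 0.000641 by edgeR), and the experiments gave 0.33 and 0.41 at 1 h and 0.21 and 0.28 at 3 h. Differentiated cells at 1 h had 39.5, 40.0, 40.0 and 38.1 CPM in non-stretched replicates 7 to 10 and 57.3, 45.3, 45.0 and 46.0 CPM in stretched replicates 4, 7, 8 and 9. All 4 stretched libraries lay above the non-stretched ones, with replicate 4 the highest, and the log2 fold change of 0.29 ± 0.074 did not pass (adjusted p = 0.143 by edgeR). Without replicate 4 it was 0.20 and passed (adjusted p = 0.0284), and it also passed by DESeq2 (0.0269), with all 24 libraries of the stage (0.00292) and with the experiment as a covariate (0.0163). At 3 h and 6 h in differentiated cells the groups overlapped, with log2 fold changes of 0.066 ± 0.035 and 0.11 ± 0.044 that did not pass, although the second did without non-stretched replicate 10 (adjusted p = 0.0489).

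Cd274 (chr19:29367455-29388095), which encodes PD-L1, a ligand that restrains T cells, had the largest changes and the fewest counts of the 9 genes tested. At 3 h the myoblasts of replicates 7 to 10 had 26, 20, 16 and 22 counts without and 17, 5, 12 and 11 counts with stretching, or 0.533, 0.337, 0.321 and 0.408 CPM and 0.251, 0.0767, 0.198 and 0.207 CPM. All stretched libraries were lower, and Cd274 fell by 1.11 ± 0.32 on the log2 scale (SE, adjusted p = 0.0182 by edgeR). The call was lost without non-stretched replicate 7 (edgeR, adjusted p = 0.0550), and DESeq2 gave Cd274 no adjusted p at 3 h in either stage. The differentiated cells at 3 h had 36, 40, 38 and 45 counts and 26, 20, 27 and 15 counts, or 0.647, 0.671, 0.584 and 0.635 CPM and 0.418, 0.321, 0.360 and 0.280 CPM. Here too the groups did not overlap, and the fall was 0.87 ± 0.17 on the log2 scale (adjusted p = 0.00559 by edgeR). At 6 h in myoblasts, 27, 14, 24 and 19 counts (0.428, 0.254, 0.371 and 0.323 CPM) stood against 37, 33, 41 and 26 counts (0.600, 0.576, 0.658 and 0.445 CPM). The stretched libraries were higher, with a log2 fold change of 0.72 ± 0.21 (adjusted p = 0.0268 by edgeR), but this call was lost without non-stretched replicate 8, 9 or 10 or without replicate 7 or 9 of the stretched group (adjusted p from 0.0525 to 0.0810) and by DESeq2 (0.0537). The experiments gave -1.48 and -0.79 at 3 h and 0.80 and 0.62 at 6 h in myoblasts, and -0.82 and -0.91 in differentiated cells at 3 h. Cd274 did not pass in the other 3 comparisons, with log2 fold changes of 0.35 ± 0.24 for myoblasts at 1 h, -0.24 ± 0.16 for differentiated cells at 1 h (-0.23 without replicate 4) and 0.19 ± 0.16 for those at 6 h. Among the leukocyte and endothelial markers, Kdr rose in stretched myoblasts at 6 h (log2 fold change 1.26, edgeR, adjusted p = 0.00284) from a mean level near 0.224 CPM in the stage, and no other tested marker of these lists passed in any comparison. The part of other cell types in the values of Cd274 was not tested.

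**Figure D3:**
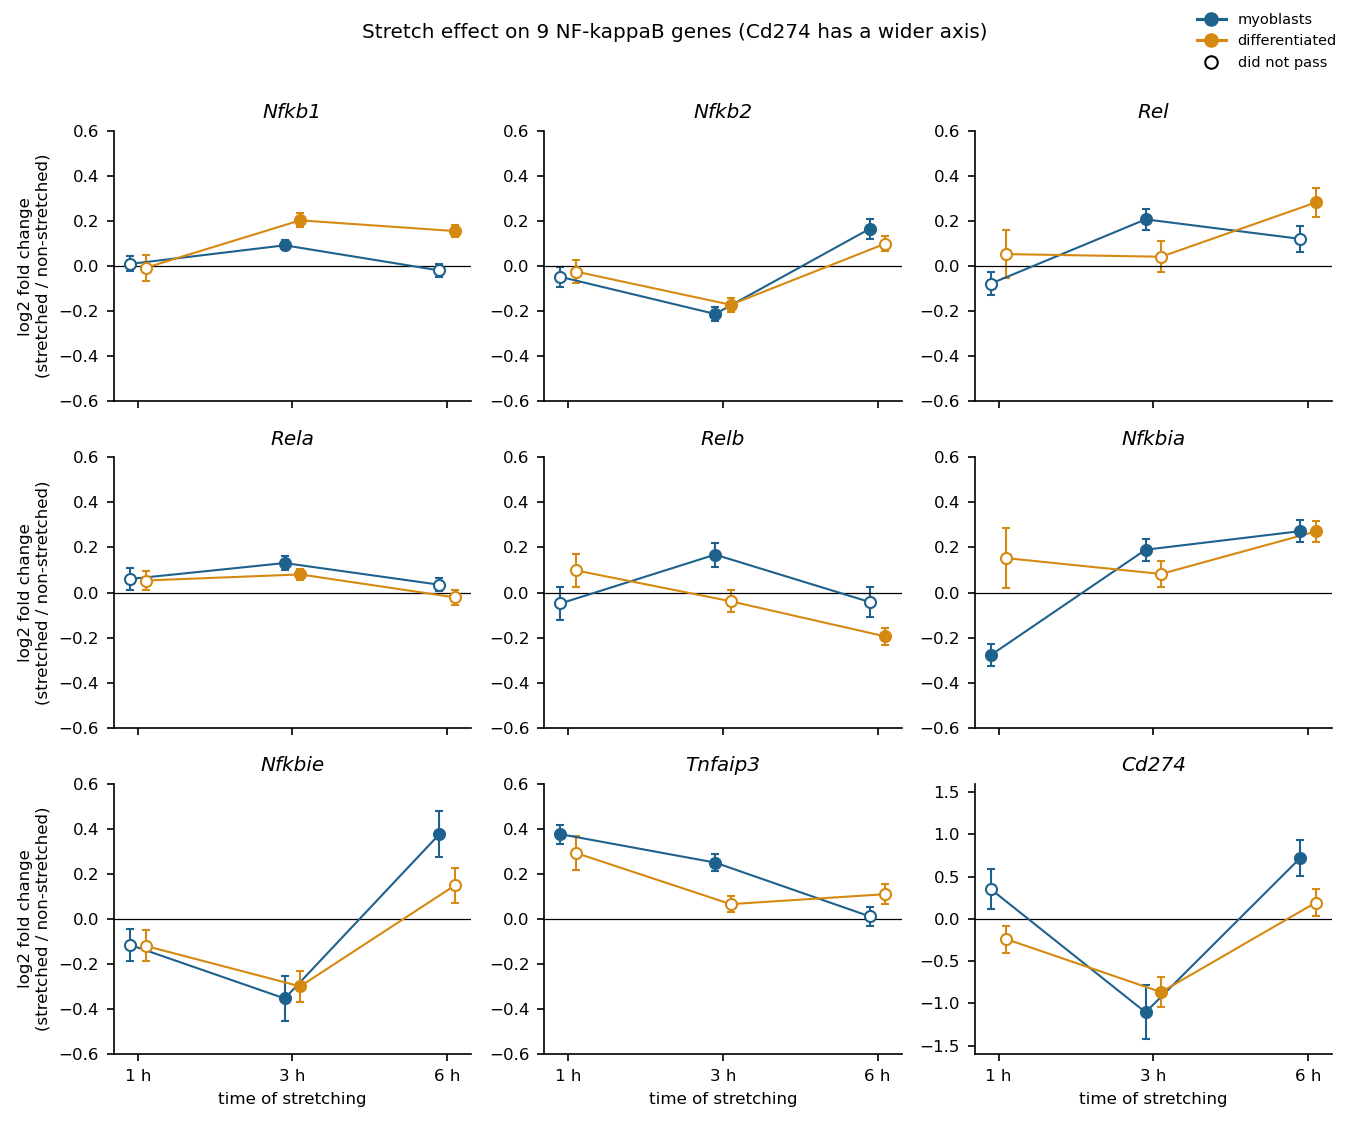
Log2 fold change of 9 genes (stretched over non-stretched, edgeR) against the time of stretching, in myoblasts (blue) and differentiated cells (orange), with bars of 1 SE. Filled points passed at an adjusted p under 0.05, and open points did not. Nfkb2, Nfkbie and Cd274 are below 0 at 3 h and above 0 at 6 h in both stages, Tnfaip3 is highest at 1 h, and Nfkbia in myoblasts passes from below to above 0 between 1 h and 3 h.

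Because several genes were lower at 3 h and higher at 6 h, the stretch effects at 6 h and 3 h were compared within each stage, a comparison added after these values had been seen. The effect differed for 5 of the 9 genes in myoblasts, beside 28.4% of all genes, and for 3 of 9 in differentiated cells, beside 15.3%. Nfkb2, Nfkbie and Cd274 passed in both stages, each with a higher effect at 6 h. For Nfkb2 the difference of the log2 fold changes was 0.38 ± 0.057 (SE, adjusted p = 0.000104 by edgeR) in myoblasts and 0.27 ± 0.044 (SE, adjusted p = 0.000668 by edgeR) in differentiated cells. For Nfkbie it was 0.73 ± 0.14 (SE, adjusted p = 0.00101 by edgeR) in myoblasts and 0.45 ± 0.11 (SE, adjusted p = 0.00855 by edgeR) in differentiated cells. That of Cd274 was 1.83 ± 0.39 (SE, adjusted p = 0.00176 by edgeR) and 1.06 ± 0.23 (SE, adjusted p = 0.00469 by edgeR). The 2 further genes in myoblasts went the other way, with a lower effect at 6 h, by -0.24 ± 0.059 (SE, adjusted p = 0.00516 by edgeR) for Tnfaip3 and -0.11 ± 0.034 (SE, adjusted p = 0.0186 by edgeR) for Nfkb1.

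Between 1 h and 6 h the stretch effect in myoblasts differed for 4 of the 9 genes, beside 18.1% of all genes. Beside Nfkbia and Tnfaip3 these were Nfkbie, with a difference of 0.49 ± 0.12 (SE, adjusted p = 0.00964 by edgeR), and Nfkb2, with 0.22 ± 0.066 (SE, adjusted p = 0.0290 by edgeR), which was lost without non-stretched replicate 8 or 10 at 1 h, replicate 9 or 10 of the stretched cells at 1 h, or without replicate 7 or 9 of either group at 6 h (adjusted p from 0.0527 to 0.0638). In differentiated cells Relb alone passed, beside 8.69% of all genes. Without stretched replicate 4 at 1 h 4 genes passed, with differences of 0.22 for Nfkb1, 0.30 for Nfkbia, 0.34 for Rel and -0.30 for Relb. The same 4 passed with the experiment as a covariate. The shares of all genes in those alternative fits are not given, so the larger number is a description. The stages were compared at each time with an interaction term over 16 libraries. At 1 h none of the 9 genes differed between the stages by edgeR or DESeq2, beside 0% of all genes, and 2 (Nfkbia and Cd274, or Nfkbia and Tnfaip3 without stretched replicate 4) had an unadjusted p under 0.05. At 3 h none passed by edgeR, beside 1.79% of all genes, 3 had an unadjusted p under 0.05 and 2 passed by DESeq2 (Nfkb1 and Tnfaip3). Tnfaip3 also passed without stretched myoblast replicate 7 (adjusted p = 0.0193 by edgeR) and with the experiment as a covariate (0.0292). The smallest adjusted p at 3 h was that of Tnfaip3, with a difference of -0.19 ± 0.051 (SE, adjusted p = 0.0676 by edgeR), whose effect was higher in myoblasts.

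The other genes of the pathway were followed in 4 lists, to be read against the percentages of all genes. In either direction, 5.92%, 31.9% and 27.2% of all genes passed in myoblasts at 1 h, 3 h and 6 h. In differentiated cells 0.663%, 22.2% and 22.3% did. The counts over the 4 lists changed when single libraries were left out, falling from 24 to 15 in myoblasts at 6 h without non-stretched replicate 7. In differentiated cells they fell from 36 to 20 at 3 h without non-stretched replicate 8 (21 without non-stretched and 22 without stretched replicate 10), and from 22 to 12 at 6 h without non-stretched replicate 7 or 8 (13 without stretched replicate 7 and 14 without non-stretched replicate 10). Every fit at 3 h without 1 library gave fewer, 34 to 37 instead of 38 in myoblasts and 20 to 31 in differentiated cells. The shares of all genes in these fits are not given, so the falls say nothing particular about pathway genes. Of 24 tested receptors and adaptors (25 listed) that feed into NF-kappaB, 1 was higher and 1 lower in stretched myoblasts at 1 h, 7 and 5 at 3 h, and 6 and 1 at 6 h. In differentiated cells the counts were 0 and 0 at 1 h, 5 and 7 at 3 h, and 2 and 3 at 6 h. Tnfrsf12a, the receptor of the cytokine TWEAK, rose at 3 h in both stages (0.29 ± 0.031 and 0.45 ± 0.027 on the log2 scale, myoblasts first), and so did the interleukin-1 receptor gene Il1r1 (0.26 ± 0.030 and 0.48 ± 0.082). Ticam1, the adaptor TRIF of Toll-like receptors, fell by 0.42 ± 0.041 in myoblasts at 3 h and was higher by 0.38 ± 0.073 at 6 h. Tnfrsf1b, the second receptor of tumour necrosis factor, fell by 0.35 ± 0.040 in differentiated cells at 6 h.

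Among 18 kinases and enzymes of ubiquitin chains, 1 was higher and 2 lower in myoblasts at 1 h, 6 and 3 at 3 h, and 0 and 6 at 6 h, and in differentiated cells 0 and 0, 4 and 5, and 1 and 3. Of all genes, 5.92%, 31.9% and 27.2% passed in myoblasts and 0.663%, 22.2% and 22.3% in differentiated cells. Ikbke, a kinase related to the IkB kinases, fell by 0.55 ± 0.094 on the log2 scale in myoblasts (adjusted p = 0.000689 by edgeR) and by 0.71 ± 0.11 in differentiated cells at 3 h (adjusted p = 0.00127), while its relative Tbk1 rose at that time (0.33 ± 0.032 and 0.18 ± 0.035). Map3k14, the gene of NIK, fell by 0.37 ± 0.050 in myoblasts at 1 h, together with Tab1, a partner of the kinase TAK1 (0.41 ± 0.038 lower). Tab1 was also lower at 6 h, by 0.22 ± 0.054 in myoblasts and 0.25 ± 0.044 in differentiated cells.

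Of 16 other IkB proteins and inhibitors tested, 1 was higher and 0 lower in myoblasts at 1 h, 5 and 2 at 3 h, and 1 and 3 at 6 h. The counts in differentiated cells were 0 and 0, 3 and 1, and 0 and 3. Of all genes, 5.92%, 31.9% and 27.2% passed in myoblasts and 0.663%, 22.2% and 22.3% in differentiated cells. Nfkbiz, an inducible nuclear IkB protein, rose by 0.47 ± 0.079 on the log2 scale in myoblasts at 1 h and fell by 0.28 ± 0.068 at 6 h. Tnip2, a binding partner of A20, rose at 3 h in both stages (0.46 ± 0.039 and 0.30 ± 0.052). The deubiquitinase Cyld fell by 0.22 ± 0.037 in myoblasts at 6 h, and Bcl3, a nuclear IkB protein that binds p50 and p52, by 0.44 ± 0.10 in differentiated cells at 6 h. Nfkbid had too few counts to be tested in any comparison. In these first 3 lists the median log2 fold change stayed between -0.067 and 0.053 in every comparison, also without stretched replicate 4 at 1 h in differentiated cells.

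The list of other NF-kappaB target genes held 32 genes, of which 20 to 22 were tested in a comparison and 8 were tested in none. In myoblasts 7 rose and 2 fell at 1 h, 9 rose and 1 fell at 3 h, and 6 rose and 1 fell at 6 h, and in differentiated cells 0 and 0, 7 and 4, and 6 and 4. At 1 h in myoblasts Ptgs2, the inducible enzyme of prostaglandin synthesis, rose by 1.01 ± 0.066 and the early response gene Ier3 by 0.71 ± 0.10 on the log2 scale, while the transcription factor gene Irf1 fell by 0.61 ± 0.062 and Gadd45b by 0.58 ± 0.066. The monocyte chemokine gene Ccl2 rose in myoblasts (0.95 ± 0.038 at 3 h and 0.76 ± 0.078 at 6 h) and in differentiated cells (0.76 ± 0.13 and 0.59 ± 0.16), and its neighbour in function Ccl7 in myoblasts (0.56 ± 0.10 and 0.92 ± 0.13). Plau, the gene of urokinase, rose in differentiated cells at 3 h (0.74 ± 0.060), and Lif (0.49 ± 0.092 lower) and Fas (0.48 ± 0.099 lower) fell there at 6 h. The median log2 fold change of this list was 0.16 in myoblasts at 1 h, 0.053 at 3 h and 0.044 at 6 h, and 0.23 (0.11 without stretched replicate 4), 0.16 and 0.11 in differentiated cells, beside medians of all genes between -0.0074 and 0.0024. Over the 4 lists together, none of 79 genes tested passed in differentiated cells at 1 h by edgeR, beside 0.663% of all genes. An unadjusted p under 0.05 was seen for 19, and 7 passed by DESeq2, but the shares of all genes under these 2 rules are not given. Without stretched replicate 4, where 22 instead of 21 target genes were tested, 8 passed by edgeR, beside 1.12% of all genes.

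**Figure D4:**
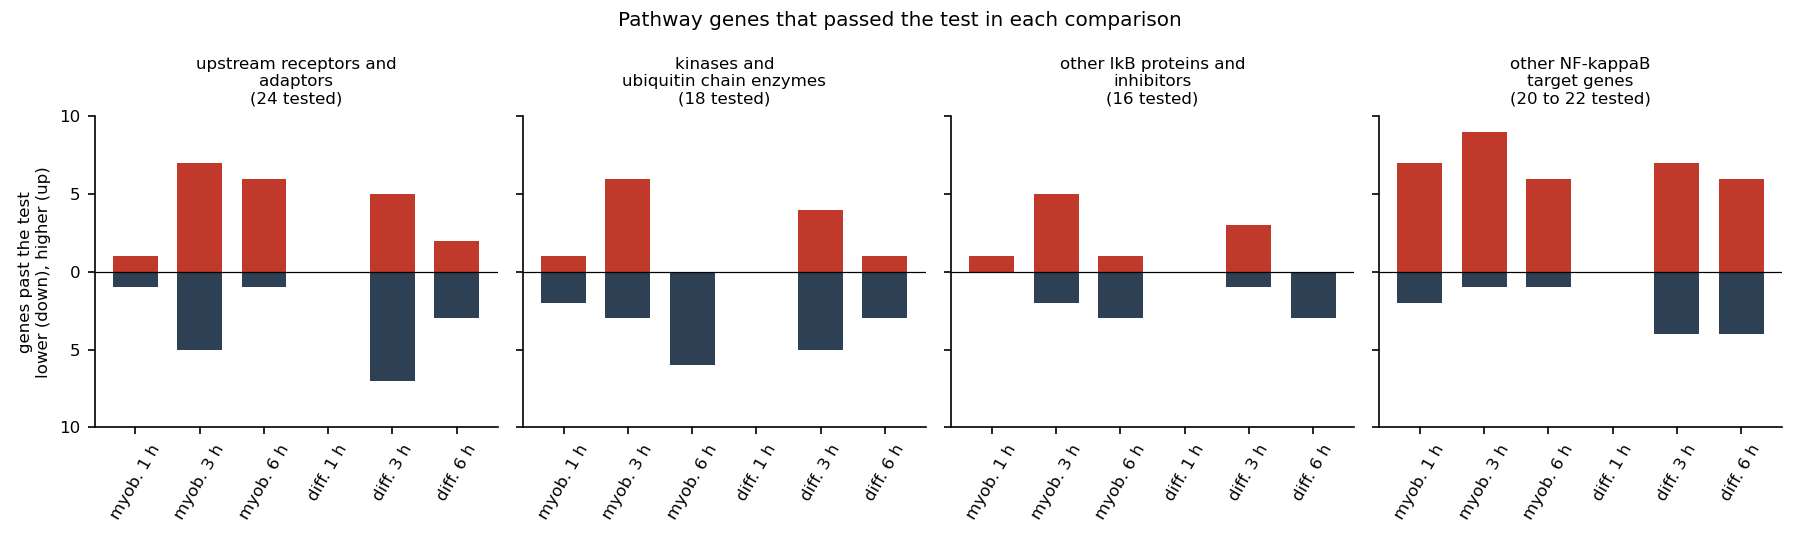
Number of genes of 4 pathway lists that passed at an adjusted p under 0.05 (edgeR) in each comparison, with genes higher in stretched cells upwards in red and genes lower in stretched cells downwards in dark blue. No gene of the lists passed in differentiated cells at 1 h, and the target genes that passed were more often higher than lower in every other comparison.

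The genes most alike in pattern were named by Pearson's r of log2 CPM over the 24 libraries of a stage, out of genes whose mean count was 100 or more. These libraries share their 6 groups, so that r describes a common course over groups, depth and experiments and has no p-value. In myoblasts the closest gene was Pigv (r = 0.958) for Nfkb2, Zfp553 (r = 0.936) for Nfkbia, Klf16 (r = 0.911) for Rela, Pisd (r = 0.909) for Relb, AU022252 (r = 0.909) for Nfkbie, Myc (r = 0.880) for Tnfaip3, Cdk12 (r = 0.855) for Rel and Nab1 (r = 0.765) for Nfkb1. Myc, the closest to Tnfaip3, encodes a transcription factor of cell growth. In differentiated cells it was Rfx1 (r = 0.920) for Nfkb2, Zbtb12 (r = 0.900) for Nfkbie, Pdlim4 (r = 0.894) for Rela, Slc25a25 (r = 0.890) for Tnfaip3, Zw10 (r = 0.885) for Nfkbia, Ptk7 (r = 0.881) for Relb and Ctr9 (r = 0.863) for Rel. Cd274 and Icam1 had too few counts for this comparison.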

How the data were processed

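RNA-seq libraries of stretched and non-stretched C2C12 cells, 4 in each of 12 groups, were taken from the deposited tables. Per the labels and the study's methods, the authors made stranded mRNA libraries, ran STAR (alignment to mm10) and Salmon (transcript quantification), and deposited whole-number counts per gene symbol, 1 table per stage with all replicates kept apart. The labels name the molecule nuclear RNA, while the methods describe whole-cell extraction. Libraries held 48447318 to 77080730 counts, all columns belonged to a labelled sample, and no pair of replicates agreed within sampling noise. Stretched and non-stretched libraries of a stage were compared at each time (8 libraries, no covariate) by edgeR's quasi-likelihood test (edgeR 4.0.16, R 4.3.3) after filterByExpr and TMM scaling, with Benjamini-Hochberg adjustment over all genes tested. Interaction terms over 16 libraries compared stretch effects between stages and times, and the comparison of 6 h with 3 h was added after the data were seen. The SE of an edgeR log2 value is its size divided by the square root of the F statistic of the quasi-likelihood test. CPM are counts scaled by TMM library sizes of the stage. Alternatives were DESeq2 1.42.0, RLE scaling, no filter or a minimum of 10 counts, all 24 libraries of the stage, the experiment or replicate number as a term, a log2 fold limit of 0.58, and leaving out each library. The fits were tested on simulated counts. Log2 differences within an experiment used a prior count of 1. The members and lists were chosen with earlier results of these data known. Of a list, up to 2 genes that rose and 2 that fell the most past the test in a comparison, with a mean of at least 100 counts, could be named. Sequences are from RefSeq, GRCm38.p6, and gene positions from the mm10 annotation. The gene most alike to Nfkb1 in differentiated cells is not reported here.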

Additional observations from a re-analysis of the deposited data

Results flagged for a closer look

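Of 108 groups of 4 libraries, 11 held a library whose gap to the next was larger than Dixon's critical value allows, where chance gives about 1 in 20 (5.4 of 108). Of these values, 3 came from stretched replicate 4 of differentiated cells at 1 h, the only library of its experiment, with 117 CPM for Nfkb1, 26.8 CPM for Nfkbia and 57.3 CPM for Tnfaip3, beside 99.5 to 101 CPM, at most 17.7 CPM and 45.0 to 46.0 CPM in the other 3 libraries. Its experiment and its other differences from those libraries cannot be told apart. The other 8 were a high Rel value in non-stretched myoblasts at 1 h (15.7 CPM, replicate 10) and at 6 h (16.9 CPM, replicate 7), low Rela values in myoblasts (82.6 CPM in non-stretched replicate 9 at 1 h, 84.8 CPM in non-stretched replicate 9 at 3 h and 92.2 CPM in stretched replicate 10 at 3 h), a low Rela value in differentiated cells (94.4 CPM, stretched replicate 7 at 3 h), a high Nfkbie value (4.22 CPM, non-stretched myoblast replicate 10 at 1 h) and a high Tnfaip3 value (55.0 CPM, stretched myoblast replicate 9 at 1 h).

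In 14 cases the stretch effect on a gene differed between stages or times by an interaction term (adjusted p under 0.05, edgeR). Between the stages this was Nfkb1 at 6 h, beside 5.18% of all genes. Its effect was higher in differentiated cells by 0.17 on the log2 scale, a call that was lost with a replicate block (adjusted p = 0.0633 by edgeR). Between 6 h and 1 h in myoblasts, beside 18.1% of all genes, the differences were 0.22 for Nfkb2, 0.55 for Nfkbia, 0.49 for Nfkbie and -0.36 for Tnfaip3. In differentiated cells, beside 8.69%, it was -0.30 for Relb. These calls of Nfkb2 and Relb were lost in 8 and 10 of 16 fits without 1 library. The comparison of 6 h with 3 h was added after the values had been seen, and 28.4% of all genes passed it in myoblasts and 15.3% in differentiated cells. Its differences were -0.11 for Nfkb1, 0.38 for Nfkb2, 0.73 for Nfkbie, -0.24 for Tnfaip3 and 1.83 for Cd274 in myoblasts. In differentiated cells they were 0.27 for Nfkb2, 0.45 for Nfkbie and 1.06 for Cd274.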

How the results depend on the processing

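Of 688 values for single genes under alternatives other than leaving out a library, 652 kept their direction and their side of the threshold, 9 no longer passed, 14 passed in addition and 13 changed direction, and of 1440 values without 1 library 1341, 38, 13 and 48 did so. None of the 61 values that changed direction passed the test before or after, and the cause was not tested. Icam1 is limited by depth, with at most 3 counts in a library, and the counts of Cd274 (5 to 59 in a library) make its fold changes imprecise.

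With a log2 fold limit of 0.58 as well, 0, 1 and 1 of the 9 genes passed in myoblasts at the 3 times, in order, and 0, 1 and 0 in differentiated cells. In differentiated cells at 1 h, 1 gene (Tnfaip3) passed by DESeq2, with all 24 libraries of the stage or with the experiment as a covariate. For the stages at 3 h, 2 genes passed by DESeq2 and 1 with the experiment as a covariate. Between 6 h and 1 h in differentiated cells, 0 passed with no filter and 4 with the experiment as a covariate. Of the pathway genes in differentiated cells at 1 h, 0 of 79 tested passed in the main fit, 7 passed by DESeq2, 6 with no filter and 12 with all 24 libraries. The shares of all genes under the alternatives of this section are not given here, so the counts are descriptions.

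Libraries with the same replicate number deviated together only weakly. Over 23 stretched and non-stretched pairs with the same number and time, r of their deviations was -0.044 to 0.153, with 6 pairs over 0.1. These values alone do not show whether the libraries were paired. With a replicate block, 0 genes instead of 1 differed between the stages at 6 h (Nfkb1, 0.17, adjusted p = 0.0633 by edgeR), 4 instead of 1 between 6 h and 1 h in differentiated cells, and 4 instead of 5 passed in differentiated cells at 3 h (without Rela, adjusted p = 0.0520), while the other counts were as before.

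Without 1 library each, the number of the 9 genes that passed was 2 in every fit in myoblasts at 1 h, 8 to 9 at 3 h and 1 to 4 at 6 h (1 without non-stretched replicate 9), and in differentiated cells 0 to 1 at 1 h (1 without stretched replicate 4), 4 to 5 at 3 h and 4 to 5 at 6 h. Between the stages the range was 0 to 0, 0 to 1 (1 without stretched myoblast replicate 7) and 1 to 1 at the 3 times, in order. Between 6 h and 1 h it was 3 to 4 in myoblasts and 0 to 4 in differentiated cells (4 without stretched replicate 4 at 1 h, and 0 without any of the 10 libraries on which the call of Relb rested), and between 6 h and 3 h it was 5 to 6 and 3 to 4. Of the pathway genes, 10 to 15 passed in myoblasts at 1 h (15 with all libraries), 34 to 37 at 3 h (38) and 15 to 24 at 6 h (24, and 15 without non-stretched replicate 7). In differentiated cells the ranges were 0 to 8 at 1 h (8 without stretched replicate 4, 3 without stretched replicate 9), 20 to 31 at 3 h (36 with all libraries, and 20 without non-stretched replicate 8, 21 without non-stretched or 22 without stretched replicate 10) and 12 to 23 at 6 h (22 with all libraries, and 12 without non-stretched replicate 7 or 8, 13 without stretched replicate 7 and 14 without non-stretched replicate 10).

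The log2 values that changed direction under other alternatives were those of Rel in differentiated cells at 1 h (-0.066 with the experiment as a covariate, -0.10 with the replicate block), Nfkbia there (-0.013 and -0.0031), the stage differences at 1 h of Rel (-0.025 with the block), Rela (7.1e-05 with no filter, 0.017 with the block) and Nfkbie (0.0023 with no filter, 0.030 with the experiment, 0.031 with the block), and that of Nfkbia at 6 h (0.0059 with RLE, 0.0088 with DESeq2, 0.024 with no filter). Without 1 library, the values that changed direction in some fit ranged, for differentiated cells at 1 h, from -0.066 to 0.019 for Nfkb1, from -0.062 to 0.0057 for Nfkb2, from -0.056 to 0.13 for Rel and from -0.027 to 0.22 for Nfkbia, and for those at 3 h from -0.031 to 0.099 for Rel. In myoblasts they ranged from -0.013 to 0.030 for Nfkb1 at 1 h, and at 6 h from -0.039 to 0.0020 for Nfkb1, from -0.089 to 0.0020 for Relb and from -0.013 to 0.041 for Tnfaip3. The stage differences ranged at 1 h from -0.081 to 0.0040 for Nfkb1, from -0.018 to 0.058 for Nfkb2, from -0.031 to 0.039 for Rela and from -0.047 to 0.021 for Nfkbie, at 3 h from -0.0039 to 0.12 for Nfkbie and from -0.032 to 0.45 for Cd274, and at 6 h from -0.037 to 0.031 for Nfkbia. The differences between 6 h and 1 h in myoblasts ranged from -0.047 to 0.030 for Rela and from -0.042 to 0.068 for Relb.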
